A study of Mus musculus with 6 samples.

Results

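Interferon-response genes were followed in mouse embryonic stem cells depleted of Rybp, of its homologue Yaf2, or of both. The 8 genes were Ifih1, Stat2, Irf9, Irf7, Ifit1, Ifit3, Isg15 and Bst2, and they were found by gene symbol as all probe sets that the array annotation gives to them. They have 9 of the 45037 probe sets tested, on arrays where 18193 genes have a probe set of their own: 2 for Stat2, 1 for each other gene. The only Isg15 probe set is annotated to Isg15 and to the pseudogene Gm9706 together, so its signal cannot be assigned to either and it is called Isg15/Gm9706.

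The 6 arrays came from 3 clones of a 129/B6 hybrid background, with a treated (OHT+, 4-hydroxytamoxifen) and an untreated (OHT-) array from each. The groups were Yaf2kd OHT+ (2 arrays, clones 3086 and 3087, labelled Yaf2 mutant and Rybp-depleted), Yaf2kd OHT- (2 arrays, the same clones, labelled Yaf2 mutant), Yaf2wt OHT+ (1 array, clone 3031, wild-type Yaf2, Rybp-depleted) and Yaf2wt OHT- (1 array, clone 3031, labelled wild type). Depletion of Rybp was by 0.8 µM 4-hydroxytamoxifen over 24 hours, and the labels do not say how Yaf2 was reduced. None of the 6 arrays holds treated cells that keep Rybp, so the drug and the loss of Rybp cannot be told apart. Yaf2wt is 1 clone, so a difference by Yaf2 status cannot be told apart from one between clones, and p-values cover the spread among these arrays. Cells were grown on irradiated fibroblasts or on gelatin, and the labels do not say which for any array.

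Type I interferon genes are switched on when sensors in the cytoplasm or in endosomes detect foreign nucleic acid. Secreted interferon then acts through its receptor and the Janus kinases on a complex that holds Stat2 and Irf9, which binds the interferon-stimulated response element of target genes and raises antiviral proteins. Embryonic stem cells are known for a weak form of this response. Rybp and Yaf2 are subunits of Polycomb repressive complex 1.

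Promoter windows of 300 bases, from 250 before to 50 after the transcription start, were taken from RefSeq (GRCm38.p6) for all 8 genes. The core letters of the response element, GAAA, any 2 bases and GAAA again, on either strand and with overlapping matches counted, were present in the windows of 6 of the 8 genes, against 3.44% of the 32851 windows in the table. In 5 of the 6 (Stat2, Ifit1, Ifit3, Isg15 and Bst2) a match lay before the start, and in Ifih1 it lay at position 33 after the start. The letters were not in the windows of Irf9 or Irf7. A second motif, TTCNNNGAA, the core of the gamma-activated site bound by Stat dimers, was found in the Bst2 window alone of the 8 genes, at position -136, where it overlaps the first response-element match, and in 8.3% of all windows. These matches are descriptions of letters and say nothing of binding. The upstream stretches of Ifit1 and Bst2 are printed because theirs were the probe sets whose OHT+ and OHT- arrays did not overlap, and that of Isg15 because its matches run into each other. Each sequence reads 5′ to 3′ on the gene's strand and ends at the base before the start, with the response-element letters in capitals.
Ifit1, chr19:34640639-34640888, plus strand: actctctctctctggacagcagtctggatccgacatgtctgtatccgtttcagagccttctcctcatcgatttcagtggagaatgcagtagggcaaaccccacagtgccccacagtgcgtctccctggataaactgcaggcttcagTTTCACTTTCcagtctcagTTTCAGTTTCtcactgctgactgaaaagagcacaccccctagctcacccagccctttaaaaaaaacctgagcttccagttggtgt
Isg15, chr4:156200819-156200968, minus strand: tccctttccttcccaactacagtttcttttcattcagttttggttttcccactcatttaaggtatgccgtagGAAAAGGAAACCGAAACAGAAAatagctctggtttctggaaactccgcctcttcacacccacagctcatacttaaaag
Bst2, chr8:71537473-71537672, minus strand: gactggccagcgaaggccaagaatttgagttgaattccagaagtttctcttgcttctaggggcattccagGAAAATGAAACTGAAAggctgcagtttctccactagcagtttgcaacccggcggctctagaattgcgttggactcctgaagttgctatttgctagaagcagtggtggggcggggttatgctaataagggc
In Ifit1 the matches began at positions -104 and -85 on the opposite strand. In Isg15 they began at -78, -72 and -66 and overlapped, and in Bst2 at -130 and -124.

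The values are linear probe-set intensities that had been normalized to the same distribution on every array, with a median of 102. A probe set was called dim where its mean over the 6 arrays was below the 40th percentile of all probe sets, an intensity of 56.9. Residual scatter was larger below that limit, with a median residual SD of 0.97 on the log2 scale, against 0.21 above it. The target checks ran with the labels for Yaf2, at 276 ± 27.2 in Yaf2kd arrays (SD, n = 4) and 793 ± 33.6 in Yaf2wt arrays (SD, n = 2) for the brighter of its 2 probe sets. Both Rybp probe sets are shared with the pseudogene Rybp-ps and moved in opposite directions. One averaged 85.8 ± 27.7 in OHT+ arrays against 2014 ± 239 in OHT- arrays, and the other 3162 ± 332 against 242 ± 82.4 (SD, n = 3 each). Of 15 probe sets of embryonic stem cell markers 14 were above the limit. The summed intensity of all 15 was 108173 to 114506 in OHT+ arrays and 96172 to 102200 in OHT- arrays. Bright probe sets weigh most in such a sum, and of the 14 above the limit 11 were higher and 3 lower in OHT+ arrays. Fbxo15 averaged 5453 in OHT+ arrays against 2106 in OHT- arrays and was the only 1 to pass the OHT comparison described below. Pou5f1 averaged 7020 in OHT+ arrays against 8060 in OHT- arrays. Feeder fibroblast markers had 22 of 33 probe sets above the limit. Summed over all 33, their intensities were 8611 to 13125 in OHT+ arrays and 7144 to 9604 in OHT- arrays. An Acta2 probe set among them averaged 4459 in OHT+ arrays and 3577 in OHT- arrays. Macrophage and blood cell markers had 6 of 11 above it, with sums over all 11 of 1258 to 1883 in OHT+ arrays and 1704 to 1804 in OHT- arrays. In these bulk samples, fewer cells of a type and less RNA per cell cannot be told apart.

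The 8 genes were, with 1 exception, low or moderate in intensity. Bst2 was at 2455 or more on every array. Stat2, Irf9 and Isg15/Gm9706 lay above the dim limit on all 6 arrays. Irf7 straddled it, with a mean just above it. Ifih1, Ifit1 and Ifit3 were dim over the 6 arrays, so 3 of the 9 probe sets had little signal to compare. Levels of different probe sets are not set against each other, since probes differ in how strongly they hybridize.

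**Figure D1:**
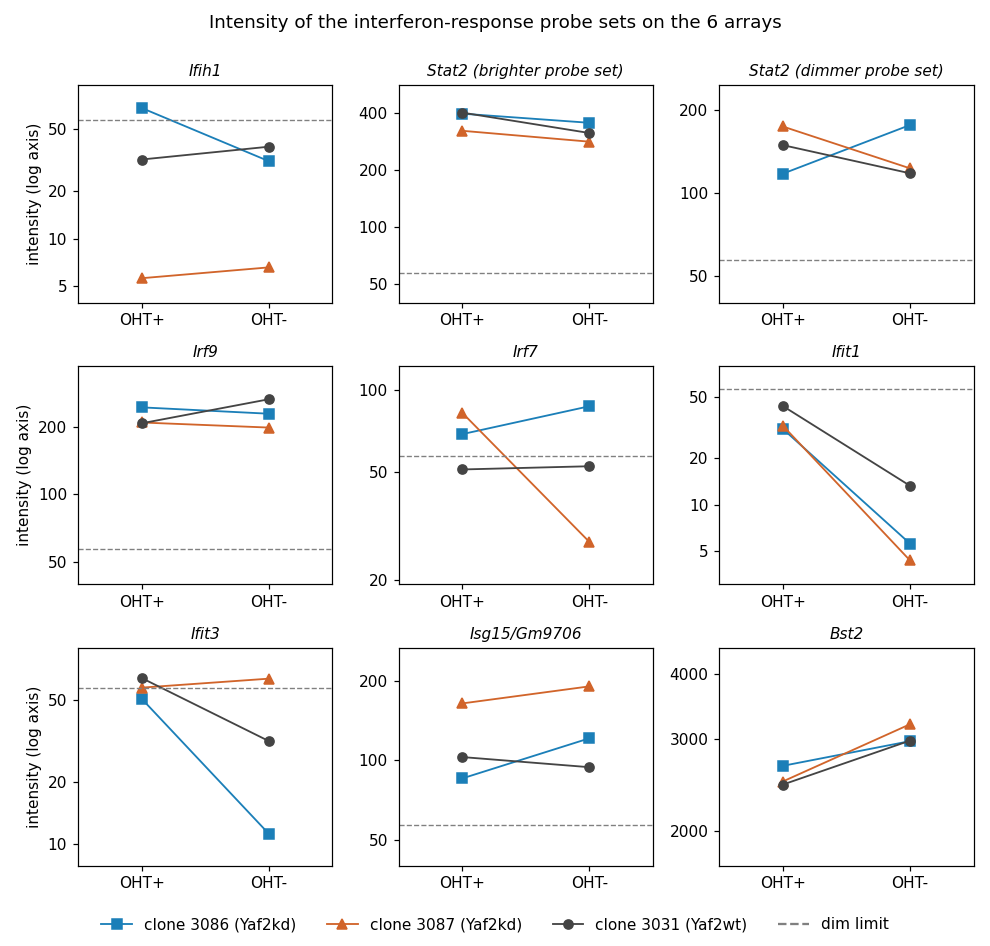
Intensity (log axis) of the 9 probe sets on the 6 arrays, with OHT+ left of OHT- and a line joining the 2 arrays of a clone; the dashed line is the dim limit (56.9), left out for Bst2, which lies far above it. All 3 lines run down to the right for Ifit1 and the brighter Stat2 probe set, and up to the right for Bst2. For every other probe set the lines of the clones run in different directions.

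The first comparison asked whether the genes differed between OHT+ and OHT- cells over the 3 clones. None of the 9 probe sets passed the test (limma with an intensity trend, Benjamini-Hochberg adjustment over all 45037 probe sets, threshold 0.05, two-sided), where 63 of all probe sets passed (0.14%), 52 of them higher (0.115%) and 11 lower (0.0244%) in OHT+ arrays. At an unadjusted p under 0.05 there were 2 of 9, against 7.99% of all probe sets. With the clone as a block 101 passed, and without the trend 0 of 45037 did (2956 before adjustment). The OHT+ and OHT- arrays did not overlap for 2 of the 9, Ifit1 (higher) and Bst2 (lower), against 12.5% of all probe sets. The 3 clones differed in the same direction for 3 of the 9, adding the brighter Stat2 probe set, against 31.3% of all.

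Ifih1 (1426276_at), the sensor of long double-stranded RNA also known as MDA5, had intensities of 67.7, 5.60 and 31.8 in OHT+ cells of clones 3086, 3087 and 3031, against 31.1, 6.57 and 38.4 in OHT- cells of the same clones. The spread between clones was larger than that between treatments, and only 1 array, clone 3086 with OHT, was above the dim limit. The log2 difference was 0.21 ± 1.01 (SE, 95% interval -2.06 to 2.48, limma adjusted p = 0.978), an interval that leaves large changes in either direction undetectable.

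Stat2, the signal transducer specific to type I and type III interferon, has 2 probe sets. The brighter (1450403_at) was at 398, 323 and 403 in OHT+ cells of clones 3086, 3087 and 3031, against 356, 283 and 314 in OHT- cells. Every clone was higher with OHT, but the groups overlapped, and the log2 difference of 0.24 ± 0.17 (SE, 95% interval -0.14 to 0.62) did not pass (limma adjusted p = 0.776). The dimmer (1421911_at) was at 117, 175 and 149 in OHT+ cells and 177, 123 and 118 in OHT- cells of the same clones. Here clone 3086 ran against the other two, and the log2 difference was 0.09 ± 0.28 (SE, limma adjusted p = 0.964).

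Irf9 (1421322_a_at), the DNA-binding subunit of the Stat complex, had intensities of 244, 209 and 207 in OHT+ cells of clones 3086, 3087 and 3031, against 229, 198 and 265 in OHT- cells. The groups overlapped, with a log2 difference of -0.06 ± 0.20 (SE, 95% interval -0.51 to 0.39, limma adjusted p = 0.963).

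Irf7 (1417244_a_at), the interferon regulatory factor that amplifies interferon-alpha production, was at 68.7, 82.3 and 51.0 in OHT+ cells of clones 3086, 3087 and 3031, against 87.0, 27.6 and 52.4 in OHT- cells. Clone 3087 was higher with OHT, clone 3086 was lower, and clone 3031 hardly differed. The log2 difference of 0.40 ± 0.52 (SE, 95% interval -0.76 to 1.55) did not pass (limma adjusted p = 0.893).

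Ifit1 (1450783_at), a tetratricopeptide-repeat protein that binds the 5′ ends of foreign RNA, was at 31.2, 32.8 and 44.0 in OHT+ cells of clones 3086, 3087 and 3031, against 5.57, 4.33 and 13.3 in OHT- cells. All OHT+ arrays lay above all OHT- arrays, and all 6 lay below the dim limit. The log2 differences were 2.49, 2.92 and 1.73 in the 3 clones, and 2.38 ± 0.71 over them (SE, 95% interval 0.78 to 3.98). The unadjusted p was 0.00795 and the limma adjusted p 0.400, and over the alternatives run the adjusted p was 0.240 to 0.800. With 50 added to each intensity before the logarithm, which shrinks differences between low values, the log2 difference was 0.58 (limma adjusted p = 0.331). Among dim probe sets, 10.4% had OHT+ and OHT- arrays that did not overlap in either direction, and 5.09% had all OHT+ arrays above.

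Ifit3 (1449025_at), a family member that acts with Ifit1 in human cells, was at 50.7, 57.4 and 63.9 in OHT+ cells of clones 3086, 3087 and 3031, against 11.2, 63.4 and 31.6 in OHT- cells. The OHT- arrays spread over a far wider range than the OHT+ arrays, and clone 3087 did not share the direction of the other two. The log2 difference was 1.02 ± 0.67 (SE, 95% interval -0.48 to 2.52, limma adjusted p = 0.751). Ifit family genes are close in sequence, and Ifit3 has a near copy, Ifit3b, so a probe set may read more than one of them. Ifit2, a further family member from the effector list and above the dim limit, was at 162, 136 and 77.8 in OHT+ cells against 177, 200 and 162 in OHT- cells of the same clones. Its log2 difference was -0.58 ± 0.26 (SE, limma adjusted p = 0.627), so the 3 differences did not share a sign.

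Isg15/Gm9706 (1431591_s_at), which reads the ubiquitin-like modifier Isg15 and the pseudogene, was at 85.4, 165 and 103 in OHT+ cells of clones 3086, 3087 and 3031, against 121, 191 and 94.3 in OHT- cells. It was lower with OHT in both Yaf2kd clones and higher in the Yaf2wt clone, and the groups overlapped. The log2 difference was -0.20 ± 0.34 (SE, 95% interval -0.97 to 0.57, limma adjusted p = 0.922).

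Bst2 (1424921_at), or tetherin, holds budding virus particles at the cell surface. It was at 2667, 2489 and 2455 in OHT+ cells of clones 3086, 3087 and 3031, against 2973, 3203 and 2980 in OHT- cells. All OHT+ arrays lay below all OHT- arrays, at 2537 ± 114 against 3052 ± 131 (SD, n = 3 each), and the log2 differences were -0.16, -0.36 and -0.28 in the 3 clones. The difference over the clones was -0.27 ± 0.08 (SE, 95% interval -0.46 to -0.08), with an unadjusted p of 0.0105, and it did not pass (limma adjusted p = 0.439; 0.279 to 0.849 over the alternatives). Among probe sets above the dim limit, 13.9% had OHT+ and OHT- arrays that did not overlap, and 7.12% had all OHT+ arrays below.

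**Figure D2:**
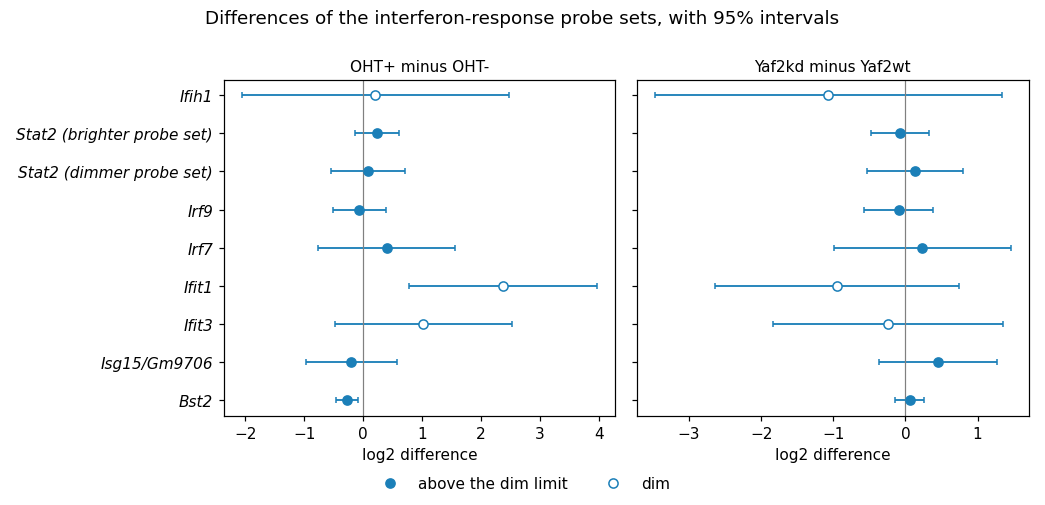
Log2 differences of the 9 probe sets in the OHT (left) and Yaf2 (right) comparisons, with 95% intervals; open symbols are dim probe sets. The intervals of Ifit1 (0.78 to 3.98) and Bst2 (-0.46 to -0.08) in the OHT comparison lie to 1 side of 0, and neither probe set passed after adjustment over all probe sets.

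**Figure D3:**
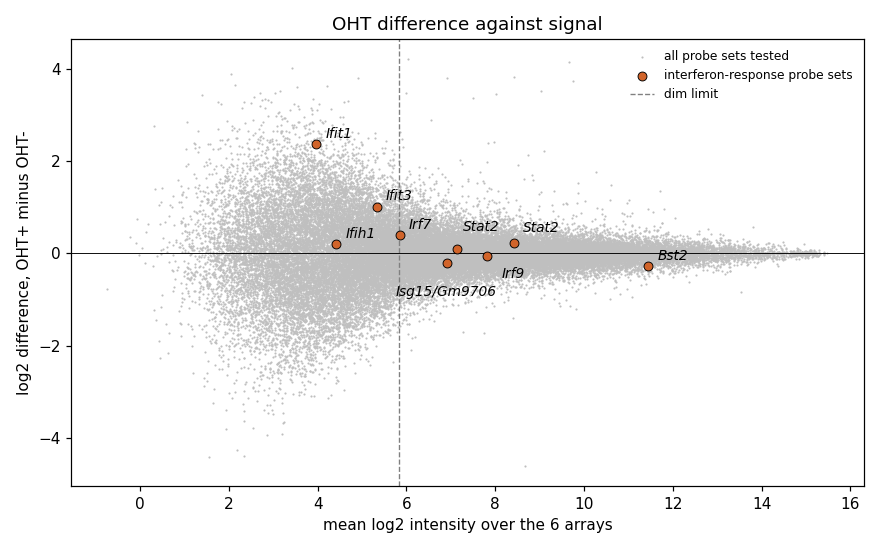
Log2 OHT difference (OHT+ minus OHT-) against mean log2 intensity for all probe sets, with the 9 probe sets of the interferon-response genes marked and the dim limit as a dashed line. The scatter widens below the limit, where Ifih1, Ifit1 and Ifit3 lie, and Bst2 lies in the narrow part at high intensity.

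The second comparison set Yaf2kd cells against Yaf2wt cells, adjusted for OHT. None of the 9 probe sets passed (limma adjusted p 0.749 to 0.944), and none had an unadjusted p under 0.05. Of all 45037 probe sets 0 passed (0%), with 4032 at an unadjusted p under 0.05 (8.95%). No member had Yaf2kd and Yaf2wt arrays that did not overlap, against 18.2% of all probe sets. Bst2 had the narrowest interval, with 2833 ± 317 in Yaf2kd arrays (SD, n = 4) and 2718 ± 371 in Yaf2wt arrays (SD, n = 2), and a log2 difference of 0.06 ± 0.09 (SE, 95% interval -0.14 to 0.26). For Isg15/Gm9706 the means were 141 ± 46.8 in Yaf2kd arrays and 98.7 ± 6.19 in Yaf2wt arrays, and the log2 difference was 0.45 ± 0.36 (SE, 95% interval -0.37 to 1.26). Both Yaf2kd arrays of clone 3087 were the highest of the 6, while those of clone 3086 lay on either side of the Yaf2wt arrays.

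The signalling genes lay close to 0 in the Yaf2 comparison. The log2 differences were -0.08 ± 0.18 and 0.13 ± 0.30 for the brighter and the dimmer Stat2 probe set, and -0.10 ± 0.21 for Irf9 (SE). Irf7 was at 66.4 ± 27.0 in Yaf2kd arrays and 51.7 ± 0.993 in Yaf2wt arrays, with a log2 difference of 0.23 ± 0.55 (SE, 95% interval -0.99 to 1.46). The dim probe sets had wider intervals, with log2 differences of -1.07 ± 1.08 for Ifih1, -0.95 ± 0.76 for Ifit1 and -0.24 ± 0.71 for Ifit3 (SE).

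The third comparison was the difference of the OHT effects, Yaf2kd minus Yaf2wt, in a model of the 4 groups that assumes the lone Yaf2wt arrays vary like the Yaf2kd arrays. No probe set of the 8 genes passed, and 0 of all 45037 passed (0%), with 1077 at an unadjusted p under 0.05 (2.39%). For Ifit1 the difference of the log2 OHT effects was 0.98 ± 1.53 (SE, 95% interval -2.55 to 4.50), and for Bst2 it was 0.02 ± 0.21 (SE, 95% interval -0.46 to 0.49). The remaining intervals were wide too, up to -4.58 to 6.01 for Ifih1.

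The rest of the pathway was read from 113 genes in lists of ligands, receptors with kinases and Stats, regulatory factors, sensors with adaptors, effectors, antigen presentation genes and negative regulators. Of these, 99 had a probe set annotated to them alone, 191 probe sets in all and 120 above the dim limit. With OHT 0 of the 191 passed in either direction. Above the limit, 53 of 120 were higher in OHT+ arrays, with a median log2 difference of -0.03, against 13148 of 27022 and a median of -0.01 over all probe sets. By list, the median was -0.04 for sensors and adaptors (8 of 19 higher in OHT+ arrays), -0.03 for receptors, kinases and Stats (8 of 19), -0.02 for regulatory factors (4 of 9) and 0.09 for negative regulators (10 of 16). Of the 8 ligand probe sets only 2 were above the dim limit. The 3 with the largest positive log2 differences were Irf8, a regulatory factor of blood cells (1.28 ± 0.35), Ifngr2, a chain of the interferon-gamma receptor (0.92 ± 0.45), and Oasl1, a relative of the oligoadenylate synthetases (0.83 ± 0.46), with SE and limma adjusted p of 0.350 to 0.708. Irf8 was at 169, 168 and 151 in OHT+ cells of clones 3086, 3087 and 3031, against 67.3, 115 and 38.8 in OHT- cells. The groups did not overlap, and the Irf8 value of 38.8 was below the dim limit. Its second probe set had a log2 difference of 0.79 ± 0.23 (SE, limma adjusted p = 0.381) and was also higher in all 3 clones. Ifngr2 was at 160, 222 and 132 in OHT+ cells of clones 3086, 3087 and 3031, against 163, 44.6 and 95.6 in OHT- cells. Clone 3087, whose OHT- array was below the dim limit, carried most of the Ifngr2 difference, which was 0.32 to 1.39 with 1 array left out. Its second probe set had a log2 difference of -0.20 ± 0.27 (SE) and was lower in all 3 clones. Oasl1 was at 128, 109 and 92.1 in OHT+ cells of clones 3086, 3087 and 3031, against 116, 34.8 and 56.7 in OHT- cells. The groups overlapped, and 2 of the OHT- arrays were below the dim limit. Its log2 difference was 0.31 to 1.30 with 1 array left out.

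The 3 with the largest negative log2 differences were Samhd1 (-0.96 ± 0.49), H2-D1 (-0.69 ± 0.12) and Ifit2, described above (SE). H2-D1, a class I antigen-presenting molecule, had the lowest adjusted p of the pathway lists (limma adjusted p = 0.0889; 0.0506 to 0.650 over the alternatives) in its probe set 1451784_x_at. That probe set was at 781, 802 and 1003 in OHT+ cells of clones 3086, 3087 and 3031, against 1461, 1149 and 1556 in OHT- cells, with no overlap. The 3 further H2-D1 probe sets above the limit had smaller log2 differences of -0.37, -0.14 and -0.01. H2 class I genes are near copies of each other, so its signal may come from more than one. Samhd1, an enzyme that breaks down nucleotides, was lower with OHT mainly in clone 3087 (80.3 in OHT+ and 438 in OHT- cells). Its 3 further probe sets above the limit had log2 differences of -0.29, -0.00 and 0.10.

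In the Yaf2 comparison, 0 of the 191 pathway probe sets passed either, and the lowest limma adjusted p was 0.322. Interferon-induced effectors were higher in Yaf2kd arrays for 31 of 35 probe sets above the limit, with a median log2 difference of 0.32, against 13730 of 27022 and a median of 0.01 over all probe sets. The limit is set on a mean in which 4 of the 6 arrays are Yaf2kd, and with the dim ones included the median was 0.21 over 63 probe sets, against 0.00 over all 45037. More of the dim effector probe sets were lower than higher in Yaf2kd arrays, with log2 differences from -1.91 (Rtp4) to 2.02 (Trim30a). The above-limit effectors' median deviation from each probe set's own mean was 0.10 and 0.22 in the Yaf2kd OHT+ arrays, 0.15 and 0.13 in the Yaf2kd OHT- arrays, -0.26 in the Yaf2wt OHT+ array and -0.21 in the Yaf2wt OHT- array (clones 3086 and 3087 in that order, log2). With OHT the same effectors were higher in OHT+ arrays for 16 of 35, with a median of -0.00. Feeder fibroblast markers were higher in Yaf2kd arrays for 18 of 22 probe sets above the limit, with a median of 0.34. Summed over all 33 probe sets, dim ones included, their intensities were 9221 to 13125 in Yaf2kd arrays against 7144 to 8611 in Yaf2wt arrays. The bright Acta2 probe set weighs most in these sums and had a log2 difference of 0.62 ± 0.09 (SE). Of the 22 fibroblast probe sets above the limit, 4 were lower in Yaf2kd arrays. With OHT the fibroblast markers were higher for 18 of 22 as well, with a median of 0.37. The part of fibroblasts in the effector values was not tested, and 1 clone carries all the Yaf2wt values.

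**Figure D4:**
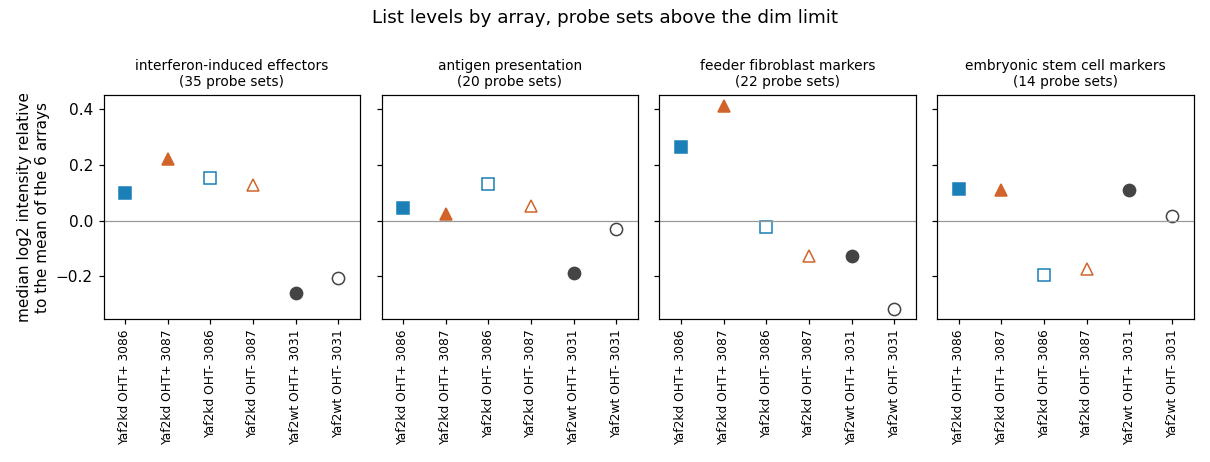
Median log2 deviation from each probe set's own mean over the 6 arrays, for interferon-induced effectors, antigen presentation genes, feeder fibroblast markers and embryonic stem cell markers above the dim limit (filled symbols OHT+, open symbols OHT-, 1 shape per clone). The effector medians are at 0.10 to 0.22 in the 4 Yaf2kd arrays and at -0.26 and -0.21 in the 2 Yaf2wt arrays, and the fibroblast markers are higher in each clone with OHT.

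Named by size in the Yaf2 comparison, Ifi27, an interferon-induced mitochondrial protein in human cells, had a log2 difference of 1.14 ± 0.62, Psmb8, an immunoproteasome subunit, 1.11 ± 0.37 and Oasl2 0.88 ± 0.46 (SE, limma adjusted p 0.444 to 0.629). Psmb8 was at 102 ± 15.5 in Yaf2kd arrays (SD, n = 4) against 46.8 ± 2.08 in Yaf2wt arrays (SD, n = 2), with no overlap. All 3 genes were dim in Yaf2wt cells, where Psmb8 and Oasl2 were under the limit on both arrays (33.1 and 49.0 for Oasl2) and Ifi27 on the OHT+ array (26.7, against 59.4 on the OHT- array). They passed the limit through their Yaf2kd arrays, so the differences are set against a group with little signal. The further probe sets of Psmb8 and Ifi27 were dim, with log2 differences of -0.55 and -0.11 in the Yaf2 comparison. On the other side, Adar, which edits double-stranded RNA, had -0.69 ± 0.22, Ifnb1, the interferon-beta gene, -0.59 ± 0.53 and Irf3, which turns on interferon-beta, -0.56 ± 0.24 (SE, limma adjusted p 0.426 to 0.782). The further probe sets above the limit were at 0.02 and -0.27 for Adar and at -0.14, -0.09 and 0.02 for Irf3. Ifnb1 was dim in Yaf2kd cells, where 2 of 4 arrays were under the limit. It passed the limit through its Yaf2wt arrays (68.7 on the OHT+ array and 86.8 on the OHT- array). Antigen presentation genes were higher in Yaf2kd arrays for 15 of 20 probe sets above the limit (median 0.16) and higher in OHT+ arrays for 6 of 20 (median -0.10).

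No pathway probe set passed in the difference of the OHT effects. Its largest log2 values above the limit were 1.58 ± 1.24 for Ifi27, 0.87 ± 0.72 for Socs1, an inhibitor of Janus kinases, and 0.86 ± 0.51 for a Stat3 probe set, against -1.74 ± 0.70 for another Stat3 probe set, -1.56 ± 1.01 for Samhd1 and -1.33 ± 1.61 for Ptpn11, a phosphatase (SE). These 2 are the dimmer of the 4 Stat3 probe sets, and they ran in opposite directions.

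Among the probe sets of the 8 genes above the dim limit, Irf7 varied most over the 6 arrays, with an SD of 0.61 (log2). Its mean was just above that limit, with 1 OHT+ and 2 OHT- arrays below it and the lowest value, 27.6, in OHT- cells of clone 3087. The genes whose log2 intensity followed Irf7 most closely were Egfl7 (Pearson r = 0.997), Mark2 (0.996) and Slc12a4 (0.992), over 6 arrays and among 23000 candidate probe sets, of which 263 had r over 0.9. The 6 arrays share clones and treatments, so this describes likeness only.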

How the data were processed

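Total RNA of 6 samples was measured on Affymetrix mouse arrays. Affymetrix Expression Console and RMA were used per the submitters' processing notes, which list no version. The deposited values are linear intensity values above 0, identical after sorting on every array, so log2 of the deposited intensity was taken without an offset. The table has 45101 probe sets, named here by their own annotation, although the design text gives a 430A 2.0 array. Control probe sets (64) were left out.

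All 45037 others were fitted with lmFit and eBayes (trend = TRUE) (limma 3.58.1, R 4.3.3), two-sided, at a Benjamini-Hochberg threshold of 0.05. OHT and Yaf2 effects came from 1 model of both (3 residual degrees of freedom), and the difference of OHT effects from the 4 groups (2 residual degrees of freedom). Array number limits precision. The method was tested on simulated data.

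The members, the lists, the tests and the intensity trend were chosen with earlier results of these data known: without the trend 0 probe sets passed in the OHT comparison. Named pathway genes are the 3 largest differences per direction and comparison above the dim limit, since none passed. The labels give both arrays of a clone the same clone number, so the clone pairs OHT+ with OHT-; deviations of the Yaf2kd arrays of a clone correlated at r = 0.13 above the dim limit and 0.03 over all probe sets, and the consensus correlation within clones was -0.088. Alternatives were no trend, no dim probe sets, 1 probe set per gene, log2(intensity + 50), cyclic loess, the clone as a block and each array left out. The same settings for list medians were added after seeing the data.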

Additional observations from a re-analysis of the deposited data

How the results depend on the processing

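No probe set of the 8 genes passed in any of the 3 comparisons under any alternative run. The number of all probe sets passing in the OHT comparison was 63, against 0 without the intensity trend and 101 with the replicate block (clone). Leaving out 1 array gave 14 to 53: 14 without Yaf2wt OHT+ replicate 1, 17 without Yaf2wt OHT- replicate 1, 21 without Yaf2kd OHT+ replicate 1 and 17 without Yaf2kd OHT+ replicate 2. In the Yaf2 comparison it was 0, and 0 to 8 with 1 array left out (8 without Yaf2kd OHT- replicate 1); the block changed no other call. The cause was not tested, beyond the loss of samples. The difference of OHT effects could not be fitted without either Yaf2wt array.

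Several log2 differences that did not pass changed sign when 1 array was left out. With OHT the ranges were -0.89 to 1.17 for Ifih1, -0.14 to 0.81 for Irf7, -0.17 to 0.085 for Irf9, -0.42 to 0.12 for Isg15/Gm9706 and -0.041 to 0.29 for the dimmer Stat2 probe set. For Yaf2 they were -0.78 to 0.29 for Ifit3, -0.10 to 0.63 for Irf7, -0.32 to 0.12 for Irf9, -0.17 to 0.014 for the brighter and -0.060 to 0.32 for the dimmer Stat2 probe set. For the difference of OHT effects they were -0.034 to 0.073 for Bst2, -1.08 to 2.52 for Ifih1, -1.25 to 1.25 for Ifit3, -0.17 to 1.48 for Irf7 and -2.91 to 0.24 for Ptpn11. Others kept their sign but moved by over 1.5 times. With OHT these included Ifit3 (0.30 to 1.73), Ifngr2 (0.32 to 1.39), Oasl1 (0.31 to 1.30), Samhd1 (-1.48 to -0.19) and Ifit2 (-0.72 to -0.34). For Yaf2 they included Ifih1 (-1.89 to -0.35), Ifit1 (-1.44 to -0.46), Isg15/Gm9706 (0.20 to 0.69), Ifi27 (0.35 to 1.93), Oasl2 (0.55 to 1.21), Adar (-1.05 to -0.33) and Ifnb1 (-0.95 to -0.26). For the difference of OHT effects they included Ifi27 (0.53 to 2.62), Samhd1 (-2.64 to -0.48) and Isg15/Gm9706 (-0.96 to -0.016). With log2(intensity + 50) the difference of OHT effects for Ifit3 was -0.16, against 0.00.

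The effector median in the Yaf2 comparison, over probe sets above the dim limit, was 0.26 to 0.37 with 1 array left out. Of these 35 probe sets, 29 to 32 were higher in Yaf2kd arrays. With 1 probe set per gene the effector median was 0.39 (24 of 26). In that setting the median over all 18193 genes, dim ones included, was 0.036. The limit is set on a mean in which Yaf2kd arrays outnumber Yaf2wt arrays, so these settings do not test its part in the effector median. With dim probe sets included, the main effector median was 0.21 over 63 probe sets. Low signal limits Ifih1, Ifit1 and Ifit3, and the single Yaf2wt clone limits every Yaf2 value.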

Other observations

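The interferon-induced transmembrane genes, which restrict virus entry and are read here by bright probe sets, were looked at after their values were seen. Ifitm1 averaged 5785 in OHT+ arrays against 7440 in OHT- arrays and was lower in all 3 clones, with a log2 difference of -0.37 ± 0.11 that did not pass (SE, limma adjusted p = 0.439). Ifitm2 averaged 12299 in OHT+ arrays and 11712 in OHT- arrays, and Ifitm3 averaged 5359 in OHT+ arrays and 4972 in OHT- arrays. In the Yaf2 comparison Ifitm3 had a log2 difference of 0.60 ± 0.15 (SE, limma adjusted p = 0.345), and Ifitm1 one of 0.24 ± 0.12 (SE, limma adjusted p = 0.609). That of Ifitm2 was 0.09 ± 0.11 (SE, limma adjusted p = 0.844).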
